A study of Mus musculus with 6 samples.

Results

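The 2 arrays numbered 1 were set against the 4 arrays numbered 2 or 3, across the whole transcriptome of 6 arrays of C2C12 myotubes. C2C12 is an immortalized line of mouse myoblasts that fuse into multinucleated myotubes when serum is lowered. In all 6 samples an LNA (a locked nucleic acid oligonucleotide) was transfected at 50 nM on day 6 of differentiation, in medium with 2% horse serum, and the cells were collected on day 7, 24 h after transfection. There were 3 arrays of cells given a miR-382-5p silencer and 3 of cells given the negative control LNA (Negative Control A), each numbered 1 to 3. The numbers come from the sample titles, and no label says that they mark separate cultures, so the spread between arrays may be technical. The sources used here do not give the culture date, passage or hybridisation batch of any array.

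The 2 arrays were selected on measured values, since earlier results of these data had set number 1 apart on the first principal component over all tested genes, so the differences below are a description of how it differed and not a test of whether it differed. All differences are of deposited log2 levels, given as the mean of number 1 minus the mean of numbers 2 and 3 with adjustment for treatment, ± the standard error (SE) of the limma fit over 2 against 4 arrays. The fit's threshold, an adjusted p under 0.05 over the 11292 genes tested, is used below to say which genes are counted as called. The myotube identity of the cells was plain in every array. The skeletal actin gene Acta1 read between 12.18 and 12.31, embryonic myosin Myh3 between 11.22 and 11.57 and the differentiation factor Myog between 9.83 and 10.20. Defining markers of adipocytes (Adipoq, Plin1, Fabp4), of macrophages (Adgre1, Csf1r, Ptprc) and of endothelium (Pecam1, Cdh5, Kdr) lay under the filter on dim genes, whose limit was a mean log2 level of 3.87. Members of these lists that other cells also express passed the filter, and none of them was called. They were Pparg, Cebpa and Lpl (3 of 9 adipocyte markers), Cd68 and Cd14 (2 of 10 macrophage and leukocyte markers) and, close to the limit, Vwf and Eng (2 of 8 endothelial markers). Of 8 osteoblast and chondrocyte markers 4 passed (Bglap, Sox9, Col2a1 and Dmp1), and none was called. Their median difference was 0.32. That list's level was 0.0444 and 0.304 in number 1 and -0.238 to 0.0436 in the others.

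Several of the genes described here belong to well-studied regulatory programmes. ATF4 is a transcription factor whose translation rises when the kinases of the integrated stress response phosphorylate eIF2 alpha, for example when amino acids run short, and its targets import and make amino acids, charge tRNAs and feed back on the stress signal. SREBP2 is released from the endoplasmic reticulum when membrane sterol is low and activates the genes of cholesterol synthesis. E2F factors switch on DNA replication genes as cells enter S phase, and myotubes have normally left the cell cycle, while unfused myoblasts in the same dish have not all done so.

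The arrays numbered 1 lay far from the others. The first principal component of the tested genes held 46.8% of the variance, with number 1 at -19.3 (silenced) and -15.0 (control) and the other 4 between 7.29 and 9.96. In the silenced arrays, number 1 differed from number 2 by 1 log2 unit or more in 97 genes and from number 3 in 93, while numbers 2 and 3 differed in 12. In the control arrays these counts were 98, 66 and 2. The silenced and control arrays numbered 1 differed from each other by that much in 7 genes, close to the 10 and 5 genes of the pairs numbered 2 and 3. Thus each array numbered 1 resembled its own-numbered partner under the other treatment more than it resembled the other arrays of its own treatment.

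**Figure D1:**
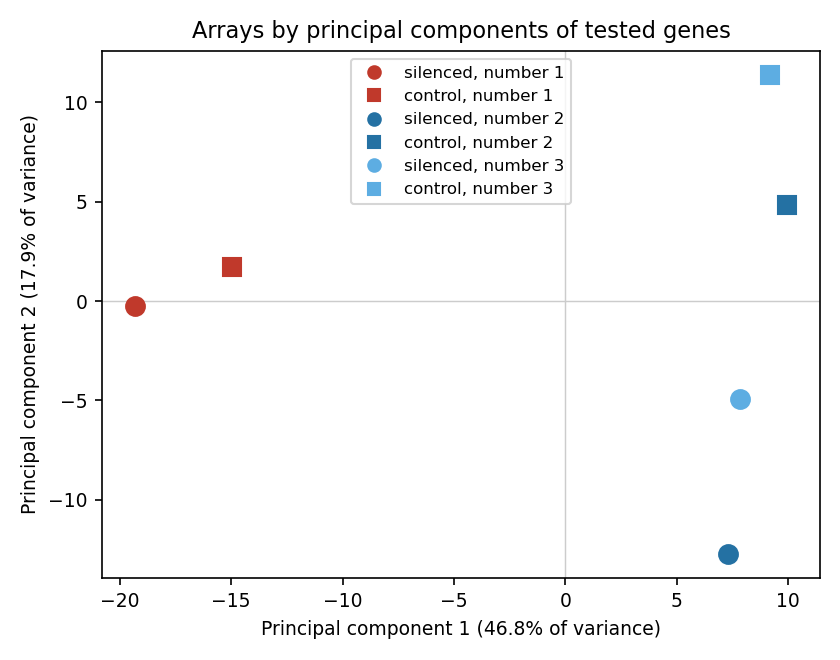
First 2 principal components of the 11292 tested genes, 1 point per array (circles silenced, squares control, red number 1, blue numbers 2 and 3). Both arrays numbered 1 sit at -19.3 and -15.0 on the first component, which holds 46.8% of the variance, and the other 4 sit between 7.29 and 9.96.

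Over the transcriptome, 554 of 11292 genes (4.91%) were called, 230 higher in number 1 (2.04%) and 324 lower (2.87%). In 1810 genes (16% of those tested) both arrays numbered 1 lay above the other 4, in 1724 (15.3%) both lay below, and 553 of the 554 called genes were among them. The lower side held the larger differences, with 43 called genes lower by 1 log2 unit or more against 7 higher, and 4 lower by 2 or more against 0. The median difference over all tested genes was 0.0053. Differences were small in the reference genes Gapdh (-0.01 ± 0.07) and Actb (0.06 ± 0.08) and in the muscle genes Acta1 (-0.02 ± 0.08) and Myh3 (0.03 ± 0.08). The count of called genes depended on single arrays. It was 20 without silenced replicate 1 (0 higher), 49 without control replicate 1, 331 and 244 without silenced replicates 2 and 3, and 164 without either control replicate 2 or control replicate 3. With the number as a random replicate block, whose estimated correlation was -0.145, it was 883, and with same-numbered arrays averaged, so that 1 value stood against 2, it was 109.

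The difference could also be read separately in each treatment, where 1 array stood against 2 and the arrays were not shared. The silenced and control differences had the same sign in 7315 genes (64.8%), and across genes they correlated at 0.55 (Pearson) and 0.45 (Spearman), a description over genes, which are not independent replicates. All 554 called genes had the same sign in both treatments, which their calling favours, and 301 of them were larger in the silenced arrays. Whether number 1 stood apart by a different amount under the 2 treatments is a question the choice of number 1 did not use. The limma interaction of number 1 with treatment called 0 genes (0%), with a smallest adjusted p of 0.377, and 795 genes (7.04%) had an unadjusted p under 0.05. With 2 residual degrees of freedom this does not show that the responses were alike.

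**Figure D2:**
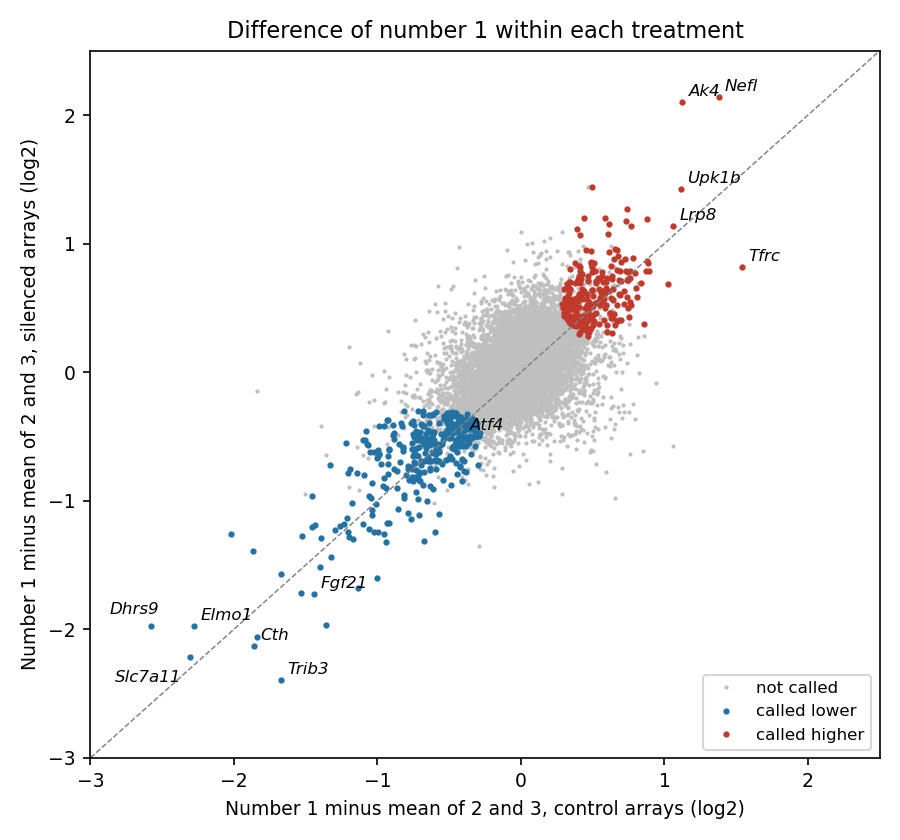
Difference of number 1 from the mean of numbers 2 and 3 for each tested gene (log2), control arrays on the horizontal axis and silenced arrays on the vertical axis, with called genes in colour and the dashed line marking equal differences. Slc7a11, Dhrs9, Elmo1, Trib3 and Cth lie far down and to the left, Nefl and Ak4 lie highest, and the 2 sets of differences correlate at 0.55.

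Genes of amino acid supply and of the ATF4 programme formed the largest lower group. Of 58 tested genes in 5 lists (ATF4 stress targets, amino acid transporters, asparagine, proline and transsulfuration enzymes, serine and one-carbon enzymes, and cytosolic aminoacyl-tRNA synthetases), 51 read lower in number 1 and 38 were called lower, against 2.87% of all tested genes. In 47 of the 58 both arrays numbered 1 lay below the other 4, and the median difference was -0.53. The 38 became 6 without silenced replicate 1, 12 without control replicate 1, and 19 and 21 without control replicates 2 and 3. These lists were drawn up with earlier results of these data known, so their direction is not independent evidence.

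Promoter windows of genes of this group are shown because they hold the letters TGATGNAA, the core of the composite element that ATF4 and C/EBP factors bind. Capitals mark each match on either strand, and each window is read 5′ to 3′ along the gene's strand, upstream of the most upstream RefSeq start (GRCm38.p6). Slc7a11, at chr3:50443627-50443724 on the minus strand, holds 2 matches, and Fgf21 (chr7:45615577-45615674, minus), Chac1 (chr2:119351004-119351101, plus), Atf3 (chr1:191183391-191183488, minus) and Nupr1 (chr7:126625528-126625625, minus) hold 1 each.
Slc7a11: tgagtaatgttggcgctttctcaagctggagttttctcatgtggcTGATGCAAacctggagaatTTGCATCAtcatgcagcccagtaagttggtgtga
Fgf21: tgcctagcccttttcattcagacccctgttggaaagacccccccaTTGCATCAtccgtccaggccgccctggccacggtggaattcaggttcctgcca
Chac1: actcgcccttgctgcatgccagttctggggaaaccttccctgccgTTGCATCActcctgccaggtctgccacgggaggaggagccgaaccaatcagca
Atf3: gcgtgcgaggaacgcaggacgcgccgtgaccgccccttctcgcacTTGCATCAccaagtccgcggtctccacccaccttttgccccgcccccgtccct
Nupr1: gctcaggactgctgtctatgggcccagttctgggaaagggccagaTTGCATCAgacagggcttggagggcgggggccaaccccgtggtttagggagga
Within 250 bases upstream of any RefSeq start, the element was found in 219 of 9034 tested genes that had a promoter in the table (2.42%), in 22 of 248 genes called lower (8.87%), in 3 of 190 called higher (1.58%) in 6 of 16 ATF4 stress targets (37.5%), in 3 of 6 genes of the asparagine list, in 2 of 10 cytosolic synthetases, in 1 of 8 transporters and in 0 of 9 serine and one-carbon genes. The windows of Trib3, Vldlr, Gpt2 and Slc6a9, upstream of their most upstream start, hold no match. A match describes letters in a window and not a bound site.

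The ATF4 stress targets were lower as a whole. All 17 tested members read lower in both arrays numbered 1 than in any other array. Against 2.87% of all tested genes, 15 were called lower, and the median difference was -1.01 (silenced -1.15, control -0.92). The 15 became 5 without silenced replicate 1 and 9 without control replicate 1. Trib3, a pseudokinase that restrains ATF4 and AKT signalling, read 6.38 (silenced) and 7.21 (control) in number 1 against 8.83, 8.72, 9.02 and 8.75 in the others. The difference was -2.04 ± 0.17. Vldlr, a lipoprotein receptor, read 5.82 and 6.05 in number 1 and between 7.66 and 8.09 elsewhere (-1.95 ± 0.14). Gpt2, mitochondrial alanine aminotransferase, read 8.24 and 8.50 against 9.90 to 10.04 (-1.62 ± 0.08). The stress-induced factor Atf3 differed by -1.24 ± 0.19, the chromatin-associated stress protein Nupr1 by -1.05 ± 0.10, the mTORC1 inhibitor Sesn2 by -0.96 ± 0.11, its fellow mTORC1 inhibitor Ddit4 by -0.49 ± 0.09 and the eIF2 alpha phosphatase subunit Ppp1r15a by -1.01 ± 0.22. Atf4 itself, whose protein is controlled mostly by translation, read 9.63 and 9.80 in number 1 and 10.08 to 10.24 elsewhere (-0.45 ± 0.08, called). Stc2 (-0.32 ± 0.10) and Cebpb (-0.50 ± 0.11) were also below the other arrays but were not called.

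**Figure D3:**
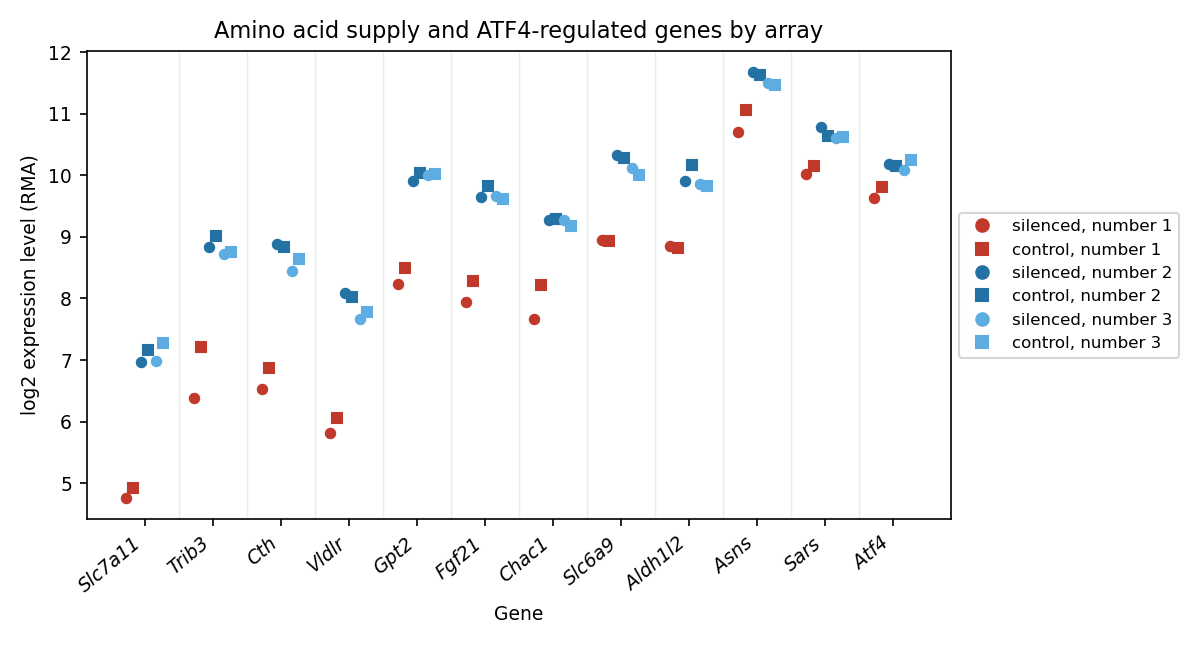
Log2 level of 12 genes of amino acid supply and the ATF4 programme, 1 point per array (circles silenced, squares control, red number 1, blue numbers 2 and 3). In every gene drawn both red points lie below the 4 blue points, from a difference of -2.26 in Slc7a11 to -0.45 in Atf4.

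Amino acid importers followed. Of 11 transporters tested, 10 read lower and 8 were called lower, against 2.87% of all tested genes, with a median difference of -0.63. The 8 became 1 without silenced replicate 1 and 2 without control replicate 1. Slc7a11, the cystine importer that feeds glutathione synthesis, had the second largest difference of all genes. It read 4.76 (silenced) and 4.92 (control) in number 1 against 6.97, 6.98, 7.16 and 7.28 in the other 4, a difference of -2.26 ± 0.08 or 4.78-fold. The glycine transporter Slc6a9 read 8.94 in both arrays numbered 1 and 10.00 to 10.34 elsewhere (-1.24 ± 0.11). The neutral amino acid carrier Slc1a4 differed by -0.89 ± 0.08, the cationic amino acid carrier Slc7a1 by -0.78 ± 0.09, and Slc7a5 and Slc3a2, the light and heavy chains of the large neutral amino acid transporter, by -0.78 ± 0.08 and -0.60 ± 0.08. Slc38a2 (-0.11 ± 0.08), Slc38a1 (-0.07 ± 0.11) and Slc43a1 (0.02 ± 0.08) were not called and their arrays overlapped.

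Enzymes that make amino acids were lower to unequal degrees. All 7 tested genes of asparagine, proline and transsulfuration metabolism read below the other arrays, with a median difference of -0.94. Against 2.87% of all tested genes, 6 were called lower. The 6 became 2 without silenced replicate 1, and 4 without control replicate 1, silenced replicate 3 or control replicate 2. Cth, which makes cysteine from cystathionine, read 6.54 and 6.88 in number 1 and 8.44 to 8.89 elsewhere (-1.99 ± 0.14, 3.98-fold). Chac1, which degrades glutathione, differed by -1.30 ± 0.14, the proline synthesis enzyme Aldh18a1 by -0.94 ± 0.10 and asparagine synthetase Asns by -0.68 ± 0.12. Against 2.87% and 2.04% of all tested genes, 4 of 10 genes in the serine and one-carbon list were called lower and 1 higher. These became 0 in either direction without silenced replicate 1 or control replicate 1, 1 lower without control replicate 2 and 2 lower without silenced replicate 3 or control replicate 3, with 0 higher in each. The largest difference was that of mitochondrial Aldh1l2 (-1.10 ± 0.11). Mitochondrial Mthfd2 (-0.63 ± 0.13) and Shmt2 (-0.60 ± 0.09, and -0.08 in its second, dim probe set) were called lower too, and mitochondrial Mthfd1l was not called. The serine phosphatase Psph differed by -0.92 ± 0.17, while Phgdh (-0.38 ± 0.09) and Psat1 (-0.28 ± 0.08), the other steps of serine synthesis, were not called. The cytosolic one-carbon enzyme Mthfd1 was called in the opposite direction (0.45 ± 0.08).

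The tRNA-charging enzymes separated by compartment. Of 17 cytosolic aminoacyl-tRNA synthetases, 9 were called lower, with a median difference of -0.40. Of 16 mitochondrial ones 0 were called lower and 1 higher, with a median of 0.02. Over all tested genes 2.87% were called lower and 2.04% higher. The 9 became 0 without silenced replicate 1, control replicate 1 or control replicate 3 and with same-numbered arrays averaged, 1 without control replicate 2, and 5 without silenced replicate 2 or 3, while the median stayed between -0.47 and -0.35. Lars (-0.58 ± 0.11), Sars (-0.58 ± 0.09), Cars (-0.53 ± 0.08) and Eprs (-0.53 ± 0.08) differed most among the cytosolic genes. Sars read 10.02 and 10.15 in number 1 against 10.61 to 10.79 elsewhere, so a difference of this size still left the groups apart. The tRNA exporter Xpot differed by -0.57 ± 0.08 and the translation repressor Eif4ebp1 by -0.76 ± 0.08. The difference between the 2 lists was not tested.

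Of 16 tested myokines and secreted stress factors 4 were called lower, namely Fgf21, Vegfa, Dcn and Igf1, against 2.87% of all tested genes. The list's median difference was -0.23. Fgf21, a hormone released by stressed muscle and liver, read 7.94 and 8.28 in number 1 and 9.62 to 9.83 elsewhere (-1.58 ± 0.10). Outside this list, Adm2, a peptide hormone of the calcitonin family, differed by -1.62 ± 0.11. Pck2, the mitochondrial form of phosphoenolpyruvate carboxykinase and also outside it, differed by -1.38 ± 0.11. Of the list, Vegfa, the angiogenic growth factor, read 9.51 and 9.59 in number 1 and 10.13 to 10.32 elsewhere (-0.70 ± 0.09). Dcn differed by -0.58 ± 0.09 and Igf1 by -0.47 ± 0.08. Fgf21 is also counted among the ATF4 stress targets, Vegfa among the hypoxia genes and Dcn among the matrix genes and fibroblast markers.

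The endoplasmic reticulum stress response was not lower as a list, and the mitochondrial one was lower by a small amount. Of 23 genes of the endoplasmic reticulum unfolded protein response 3 were called lower, against 2.87% of all tested genes. The list's median difference was 0.07. Herpud1, which takes part in degradation at the reticulum, was the largest (-0.83 ± 0.11), and the sensor Ern1 (-0.45 ± 0.07) and the channel protein Derl1 (-0.35 ± 0.07) were the others. Herpud1 is also counted among the ATF4 stress targets. The chaperone Hspa5 was not called and read 11.52 and 11.67 in number 1 against 11.39 to 11.51 (0.14 ± 0.08). The eIF2 alpha kinase of the reticulum, Eif2ak3, was called higher (0.45 ± 0.08). Of 17 mitochondrial chaperones and proteases 3 were called lower, namely the protease Lonp1 (-0.67 ± 0.08), the chaperone Hspa9 (-0.39 ± 0.08) and its partner Dnaja3 (-0.42 ± 0.08). That list's median was -0.06, and its level was -0.057 and -0.020 in number 1 and 0.003 to 0.040 in the others. Nuclear genes of the respiratory chain (52 tested, median -0.02) and cytosolic ribosomal proteins (49 tested, median -0.01) had 0 called genes each. The cytosolic heat shock list lay the other way, with all 12 members higher and a median of 0.20. Its members Hspd1 and Hspe1 act in the mitochondrial matrix, so the list was not purely cytosolic. Of the 12, 2 were called (Hsph1 0.58 ± 0.08, Dnajb1 0.49 ± 0.08), against 2.04% of all tested genes called higher.

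**Figure D4:**
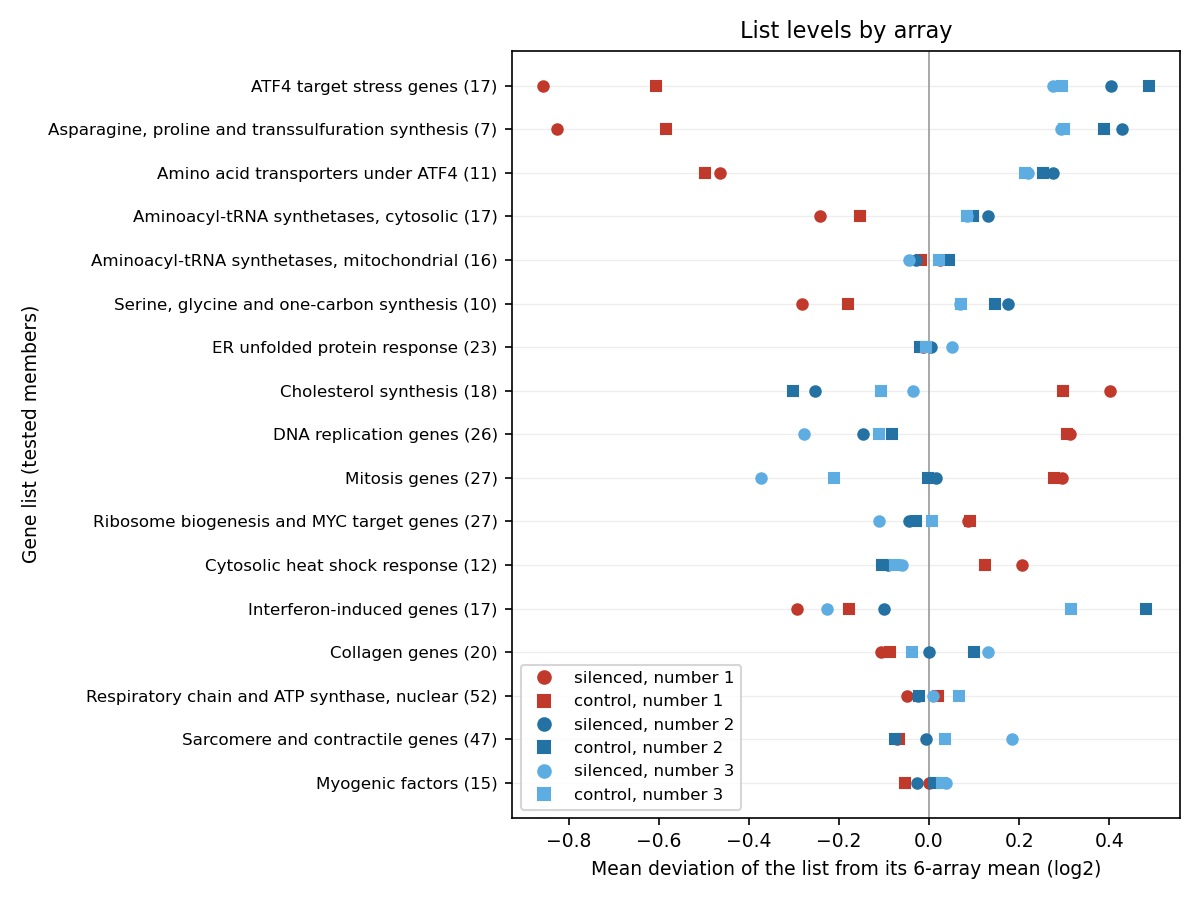
Mean deviation of each gene list from its own mean over the 6 arrays (log2), 1 point per array (circles silenced, squares control, red number 1, blue numbers 2 and 3), with the number of tested genes in brackets. Red points lie apart to the left in the ATF4 and amino acid lists and to the right in the cholesterol, replication and mitosis lists, and overlap the blue points in the mitochondrial synthetase, respiratory chain and myogenic factor lists.

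Sterol genes were higher in number 1. All 18 tested genes of cholesterol synthesis and its control read higher, in 16 of them both arrays numbered 1 lay above the other 4, and 9 were called higher against 2.04% of all tested genes, with a median difference of 0.44. The 9 became 0 without either array numbered 1, and 3 and 4 without control replicates 2 and 3. Insig1, the reticulum protein that holds SREBP back when sterol is plentiful and is itself an SREBP target, read 9.96 (silenced) and 10.10 (control) in number 1 against 9.14, 9.42, 9.01 and 9.15 (0.85 ± 0.12). The sterol carrier Stard4 read 7.05 and 6.75 against 5.71 to 6.11 (0.95 ± 0.14). Idi1 (0.80 ± 0.13), Lss (0.79 ± 0.14), Hmgcs1 (0.77 ± 0.10), Hsd17b7 (0.76 ± 0.10), Sc5d (0.47 ± 0.09), Cyp51 (0.43 ± 0.07) and Fdft1 (0.42 ± 0.09), enzymes from early and late steps of the pathway, were the other called members. The regulators Srebf2 (0.11 ± 0.07) and Srebf1 (0.15 ± 0.08) were not called.

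Genes next to this pathway differed in both directions. Among fatty acid synthesis genes 2 of 14 were called higher, against 2.04% of all tested genes. They were the elongase Elovl6 (0.87 ± 0.12) and fatty acid synthase Fasn (0.73 ± 0.12). The lipoprotein receptor Lrp8, which read 6.86 in both arrays numbered 1 and 5.48 to 5.96 elsewhere, differed by 1.10 ± 0.15. The fatty acid binding protein Fabp5 was higher (0.84 ± 0.08). Genes of sterol export or oxysterol handling, chosen after their values were seen, were lower, with -0.92 ± 0.17 for the cholesterol exporter Abca1, -1.06 ± 0.09 for the 25-hydroxylase Ch25h and -1.23 ± 0.13 for the lipid carrier Stard5. The level of Abca1 in number 1 (3.88 and 3.95) lay at the limit of the filter on dim genes.

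Promoters of 1 sterol gene and 2 replication genes that hold an element of their regulators are shown for comparison. For Hmgcs1 (chr13:119690169-119690267, plus) the capitals mark the sterol regulatory element TCACNCCAC. For the replicative helicase subunits Mcm6 (chr1:128359763-128359860, minus) and Mcm7 (chr5:138171996-138172093, minus) they mark the E2F element, searched as TTTCCCGC, TTTGGCGC or TTTCGCGC, and the 2 matches in the window of Mcm6 overlap.
Hmgcs1: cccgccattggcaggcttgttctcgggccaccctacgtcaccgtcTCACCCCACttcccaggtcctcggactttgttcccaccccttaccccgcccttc
Mcm6: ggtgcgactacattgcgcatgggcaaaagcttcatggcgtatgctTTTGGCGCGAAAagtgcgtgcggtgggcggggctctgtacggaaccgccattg
Mcm7: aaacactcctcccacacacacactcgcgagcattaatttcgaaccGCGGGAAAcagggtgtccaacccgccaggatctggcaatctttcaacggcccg
Within 250 bases upstream, on both strands, the E2F element was found in 322 of 9034 tested genes with a promoter (3.56%), in 13 of 190 called higher (6.84%), in 2 of 248 called lower (0.81%) and in 7 of 23 replication genes (30.4%). In the mitosis list the E2F element was in 1 of 24 genes (4.17%). The sterol regulatory element was in 107 of 9034 (1.18%) and in 1 of 14 cholesterol genes (7.14%). It was in 3 of 190 genes called higher (1.58%) and in 1 of 248 called lower (0.40%).

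Genes of DNA replication and mitosis read higher throughout. All 53 tested genes of the 2 lists were higher in number 1, in 47 both arrays numbered 1 lay above the other 4, and the median difference was 0.44. Of the 26 replication genes 11 were called higher, and of the 27 mitosis genes 3 were, against 2.04% of all tested genes. The 14 calls became 0 without silenced replicate 1, 1 without control replicate 1, 5 without silenced replicate 3 and 4 without either control replicate 2 or control replicate 3. The mitosis genes differed between the arrays numbered 2 and 3 as well, with list levels of 0.02 and -0.00 in number 2 and -0.37 and -0.21 in number 3, against 0.29 and 0.28 in number 1. Without both arrays numbered 2, 18 of the 27 mitosis genes were called, and without both numbered 3, 0 were.

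Among replication genes, Uhrf1, which reads hemimethylated DNA behind the fork, read 7.50 and 7.31 in number 1 against 6.59 to 6.65 elsewhere (0.78 ± 0.08). The flap endonuclease Fen1 (0.76 ± 0.12), the cyclin of S-phase entry Ccne1 (0.76 ± 0.10) and the helicase subunit Mcm3 (0.70 ± 0.08) followed. The helicase subunits Mcm6 (0.41 ± 0.08) and Mcm7 (0.40 ± 0.07) and the sliding clamp Pcna (0.38 ± 0.08) differed less and were called too. All 10 tested genes whose symbols begin with Mcm were higher, with a median of 0.40. Of the 10, 5 were called, against 2.04% of all tested genes called higher. In mitosis, the kinase Plk1 (0.57 ± 0.12), the activator of the anaphase-promoting complex Cdc20 (0.49 ± 0.10) and the kinetochore protein Cenpf (0.46 ± 0.09) were called, and the proliferation marker Mki67 was not (0.49 ± 0.11). Mki67 read 9.70 and 9.77 in number 1, 9.37 and 9.36 in number 2 and 9.01 and 9.23 in number 3.

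Other genes of DNA replication and the cell cycle, outside these lists, were also higher. The nuclease Exo1 (1.04 ± 0.15) and the checkpoint mediator Clspn (0.87 ± 0.07) were among the 15 largest higher differences, and Clspn read 6.97 and 7.12 in number 1 against 6.08 to 6.28. Of genes chosen after their values were seen, the repressors E2f7 (0.79 ± 0.10) and E2f8 (0.58 ± 0.12), the replication factor regulator Dtl (0.68 ± 0.09), the ubiquitin ligase subunit Skp2 (0.65 ± 0.11), Mybl2 (0.62 ± 0.11), the repair protein Brca1 (0.60 ± 0.12) and the nuclear lamin Lmnb1 (0.83 ± 0.14) were called higher. The G1 cyclin Ccnd1 was called higher (0.67 ± 0.11), and the cell cycle inhibitor Cdkn1a, which is high in myotubes, read between 11.81 and 12.07 in all arrays (-0.02 ± 0.08). Markers of undifferentiated myoblasts overlapped between the arrays, with list levels of 0.05 to 0.14 in number 1 and -0.11 to 0.07 in the others. Of 19 tested, 1 was called higher (Notch1 0.60 ± 0.10) and 1 lower (Cd34 -0.81 ± 0.10), against 2.04% and 2.87% of all tested genes. In bulk RNA a larger share of dividing cells and more RNA of these genes per cell cannot be told apart.

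**Figure D5:**
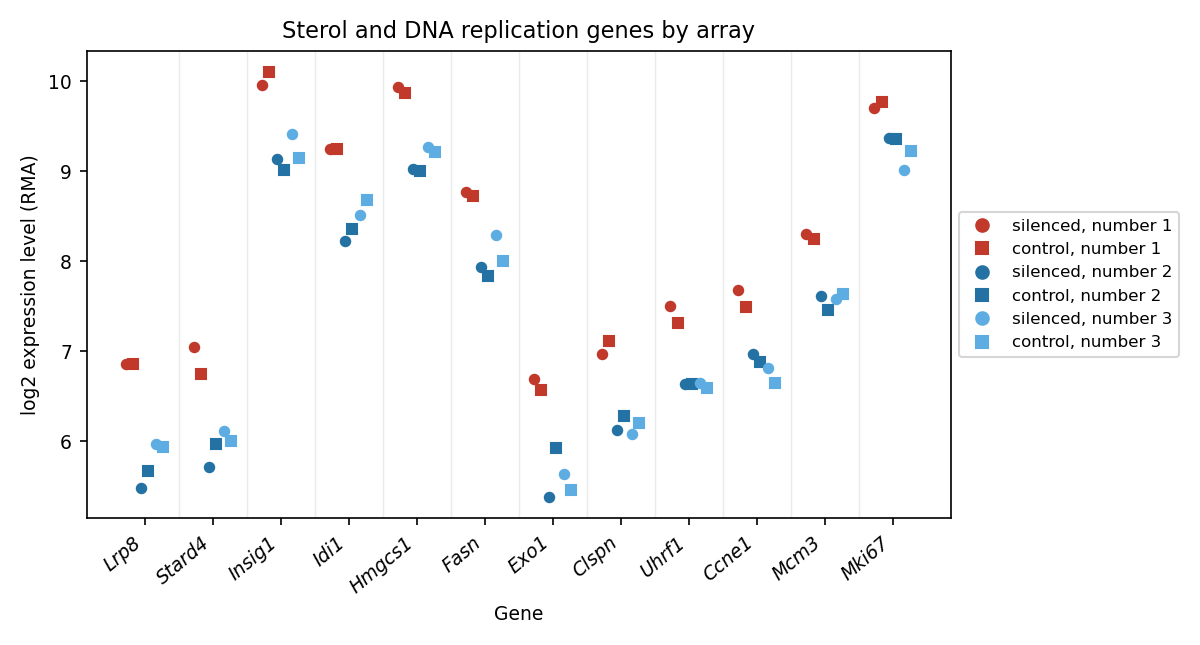
Log2 level of 6 sterol and lipid genes and 6 DNA replication or proliferation genes, 1 point per array (circles silenced, squares control, red number 1, blue numbers 2 and 3). Both red points lie above the 4 blue points in every gene drawn, from a difference of 1.10 in Lrp8 to 0.49 in Mki67.

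Of 47 sarcomere and contractile genes 1 was called higher (2.04% over all tested genes) and 2 lower (2.87%), a share near that of all genes, and the median difference was -0.07. The Z-disc protein Myot read 6.75 and 7.23 in number 1 and 7.80 to 8.02 elsewhere (-0.91 ± 0.11), the actin-binding protein Xirp2 differed by -0.67 ± 0.09, and the light chain Myl6b, found in embryonic and slow muscle, by 0.53 ± 0.11. Of 15 myogenic factors only Myf6, the late-acting one, was called (-0.38 ± 0.08). Myog was below the other arrays by a similar amount without being called (-0.29 ± 0.08), and creatine kinase Ckm overlapped (-0.17 ± 0.16).

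The called hypoxia genes split into 2 directions, with 4 of 17 called higher and 4 lower, against 2.04% and 2.87% of all tested genes. Of the 17, 12 read higher and 5 lower, and the list's median difference was 0.31. Higher were Ak4, a mitochondrial adenylate kinase (1.61 ± 0.26, and 0.18 in its second probe set), the mitophagy receptor Bnip3 (0.55 ± 0.08), the HIF hydroxylase Egln1 (0.41 ± 0.08) and the glucose transporter Slc2a1 (0.48 ± 0.08). Lower were the thiol oxidase Ero1a (-1.07 ± 0.08), the carbonic anhydrase Car9 (-0.81 ± 0.16), the stress-responsive gene Ndrg1 (-0.56 ± 0.10) and Vegfa. Ero1a read 8.71 and 8.92 in number 1 and 9.81 to 10.04 elsewhere. Of 23 tested glycolysis and glycogen genes 3 were called higher and 0 lower, against 2.04% and 2.87% of all tested genes. They were Pfkl (0.54 ± 0.10), Pgam1 (0.37 ± 0.08) and Slc2a1. Of the 23, 13 read higher and 10 lower, with a median of 0.07. The lactate exporter Slc16a3 was called higher as well (0.65 ± 0.09).

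Matrix genes were lower in part. Of 29 matrix genes 4 were called lower and of 20 collagens 2 were, against 2.87% of all tested genes. The medians were -0.09 and -0.15. The elastic fibre protein Fbln5 (-0.76 ± 0.10), the proteoglycan Dcn (-0.58 ± 0.09), the gelatinase Mmp2 (-0.45 ± 0.08), Fbln2 (-0.43 ± 0.09), Col6a1 (-0.48 ± 0.09) and Col6a2 (-0.53 ± 0.09) were the called members. Cilp, a cartilage matrix protein, read 6.00 and 5.82 in number 1 and 7.13 to 7.75 elsewhere (-1.46 ± 0.14). Of 7 tested fibroblast markers 1 (Dcn) was called lower, the list level was -0.24 to -0.19 in number 1 and -0.02 to 0.25 in the others, and Thy1, Fap, Tcf21 and Dpp4 lay under the filter on dim genes. The part of fibroblast-like cells in the matrix differences was not tested.

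Of 17 interferon-induced genes, which defend against viruses, 2 were called lower, against 2.87% of all tested genes. The list's levels overlapped, from -0.29 to -0.18 in number 1 and from -0.23 to 0.48 in the others. Isg15 read 4.17 (silenced) and 4.39 (control) in number 1, 4.94 and 4.85 in the silenced arrays numbered 2 and 3, and 5.79 and 5.66 in the control arrays numbered 2 and 3 (-1.03 ± 0.14). Ifit3 had the same order of groups (-0.82 ± 0.14). The list's median difference was -0.10 in silenced and -0.40 in control arrays, with 0 genes called for the interaction over all those tested.

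The remaining genes with the largest differences had varied roles. Lower were Dhrs9, a retinol and steroid dehydrogenase that read 5.03 and 4.92 in number 1 and 7.01 to 7.51 elsewhere (-2.28 ± 0.13, 4.85-fold), the RAC activator subunit Elmo1 (-2.13 ± 0.09), the vesicle GTPase Rab39b (-1.66 ± 0.14), the secreted carbonic anhydrase Car6 (-1.63 ± 0.24), the dioxygenase-like Phyhd1 (-1.41 ± 0.16) and the GTPase regulator Arap2 (-1.40 ± 0.09). Elmo1 read 4.13 and 3.98 in number 1, near the filter limit, and 6.07 to 6.28 elsewhere. Higher were the neurofilament genes Nefl (1.76 ± 0.25) and Nefm (0.89 ± 0.15), the urothelial tetraspanin Upk1b (1.27 ± 0.12), the serotonin receptor Htr1b (1.00 ± 0.18), the cornified envelope protein Sprr1a (0.97 ± 0.20), the spindle protein Fam83d (0.95 ± 0.17), smooth muscle calponin Cnn1 (0.88 ± 0.13) and the transferrin receptor Tfrc. Tfrc, which imports iron, read 9.03 and 9.42 in number 1 and 7.64 to 8.27 elsewhere (1.18 ± 0.19), while the iron exporter Slc40a1 was lower (-0.77 ± 0.13). Nefl read 8.18 and 7.49 in number 1 and spread from 5.61 to 6.47 in the others.

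Differences just inside and just outside the calling threshold were alike. Kif4, Tes and Usp43 were the last called, with differences of 0.63, 0.39 and -0.49, and Rgs12 and Bok, at 0.65 and 0.40, were among the first not called. The share called varied from 3.32% to 6.24% over 5 equal bins of mean level, with 3.32% in the dimmest bin and 4.74% in the brightest, and from 3.80% on chromosome 2 to 8.42% on chromosome 10.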

How the data were processed

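The authors deposited log2 levels from Affymetrix gene arrays processed by RMA (background correction, quantile normalization and probe summary) per the submitters' processing notes; the sources used here name no software or version. Quantile normalization forces a common distribution (array medians 4.21 to 4.27), so differences are relative to the other genes. Only 6 arrays limit the precision. Of 35556 probe sets, 21218 were annotated to 1 gene, 1881 to several (not named) and 12457 were not listed. Each of 18820 genes kept its probe set with the highest mean, and the 11292 genes above the 40th percentile of mean level (log2 3.87) were tested.

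Differences were fitted with limma 3.58.1 in R 4.3.3 as treatment plus number 1, with Benjamini-Hochberg adjustment at 0.05, and the interaction was a separate fit. The scripts were tested on simulated data. After subtraction of the treatment mean, silenced and control arrays of the same number correlated at 0.55 (number 1), 0.35 and 0.42. The shift of number 1 enters both treatment means, so the values for numbers 2 and 3 do not show a pairing. No label states one. By median absolute log2 difference, numbers 2 and 3 lay closer within a treatment (0.115 silenced, 0.105 control) than same-numbered arrays did (0.117 and 0.131). The fit behind the printed values has no block. A fixed block would absorb the contrast, so the number was tried as a random block in an alternative, where the correlation left within numbers was -0.145.

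The comparison and the 60 gene lists were chosen with earlier results of these data known. Named were the 15 largest called differences in each direction with both arrays numbered 1 outside the others. Also named were up to 4 called members of each list with 3 called genes or a median of at least 0.2 in size (the 2 smallest p-values where none was called). A panel was named too. It held Gapdh, Actb, Acta1, Myh3, Ckm, Myog, Mki67 and Hspa5. Its ATF4 and amino acid genes were Slc7a11, Trib3, Fgf21, Chac1, Atf4, Asns, Psat1 and Phgdh. Gdf15 of the panel lay under the filter and was not tested. Other genes of the lists, and those said to be, were chosen after their values were seen. Predicted genes and small RNAs were counted and not named. Promoters are RefSeq's (GRCm38.p6).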

Additional observations from a re-analysis of the deposited data

How the results depend on the processing

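All 554 called genes that were tested kept their direction under every alternative run. In 553 of the 554, both arrays numbered 1 lay outside the range of the arrays numbered 2 and 3. For these genes, leaving out arrays, averaging same-numbered arrays or dropping the treatment covariate could not reverse the sign. Their constant direction in those runs is therefore not a test of robustness. The number of genes called varied widely. The count was 230 (72 higher, 158 lower) with no filter, 854 (407 higher) with the filter at the 60th percentile, 1059 (501 higher, 558 lower) with a trended robust prior, 883 (408 higher) with the random replicate block and 109 (28 higher, 81 lower) with same-numbered arrays averaged. Leaving out 1 array, or both arrays of number 2 or 3, gave 20 to 503 genes, 0 to 241 higher and 20 to 262 lower; where 1 array numbered 1 was left, it was assumed to vary like the others. The same omissions moved the list medians from -1.15 to -0.91 for ATF4 stress targets, -0.72 to -0.60 for amino acid transporters, -1.09 to -0.79 for asparagine, proline and transsulfuration enzymes, -0.47 to -0.35 for cytosolic synthetases, 0.35 to 0.56 for cholesterol genes, 0.36 to 0.51 for replication genes and 0.30 to 0.60 for mitosis genes. The transporter median was -0.70 with the stricter filter and the asparagine list's -0.81 with no filter. The interaction called 0 genes under each alternative run, with smallest adjusted p-values (limma) of 0.217 to 0.738 and 486 to 1371 genes at an unadjusted p under 0.05. Repeat quantile normalization, median centring, the mean of probe sets and no treatment covariate gave 582, 676, 580 and 571 genes. Dim genes carry more noise relative to their signal, which limits Elmo1, Abca1 and other genes near the filter.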

Other observations

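Gene families grouped by symbol gave a view that needed no list. Of 181 symbol prefixes with at least 8 tested genes, the median of the family medians was 0.0065. The carbonic anhydrases (Car) were lowest, with all 11 tested members lower in number 1 and a median difference of -0.49. Of the 11, 5 were called, against 2.87% of all tested genes called lower. Car2 (-0.78 ± 0.15), Car11 (-0.55 ± 0.09) and Car12 (-0.65 ± 0.10) were called beside Car6 and Car9. The Bardet-Biedl (Bbs) genes of the primary cilium came next (8 tested, median -0.26, 1 called lower). After the Mcm genes, nuclear pore genes (Nup) were highest, with 15 of 17 higher and a median of 0.27. Of the 17, 2 were called (Nup155 0.42 ± 0.07, Nup133 0.42 ± 0.08), against 2.04% of all tested genes called higher. Splicing factors of the Srsf family were higher in 8 of 9 with 0 called.

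Some single genes chosen after their values were seen add to the lower side. The retinal reductase Dhrs3 read 6.55 and 6.49 in number 1 and 7.53 to 8.05 elsewhere (-1.22 ± 0.16), and Rdh5 (-0.75 ± 0.11) and Adh7 (-0.75 ± 0.12) were also called lower, while the Dhrs family as a whole was mixed (9 tested, 1 called higher and 3 lower). The transcription factor Etv4 (0.83 ± 0.08) and the phosphatases Dusp4 (0.74 ± 0.14) and Dusp5 (0.67 ± 0.12), 2 of 20 tested Dusp genes, were called higher, and the immediate early list had 1 of 21 genes called in each direction and a median of -0.0043. The Notch receptor Notch1 and its modifier Lfng (0.51 ± 0.10) were called higher and the ligand Jag1 lower (-0.99 ± 0.12). Notch1, Lfng and Jag1 were named by the rule for lists. The other genes of this paragraph were chosen after their values were seen, and none of the genes has a test of its own. Over all tested genes 2.04% were called higher and 2.87% lower. Of the 554 called genes, 432 were in none of the 60 lists.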
